A study of Mus musculus with 6 samples.

Results

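Granulocyte and monocyte priming genes were examined in LSK cells (Lin-Sca+Kit+), the bone marrow fraction that holds hematopoietic stem cells and multipotent progenitors. The set is a fixed list of 39 genes, matched by symbol in a table of 53445 loci. All 39 were listed, each under 1 locus, and 38 of them passed the filter on low counts, the exception being Lyz1. The rule that lists them uses no measured value. They were read in order of their known roles, with 12 early priming genes kept apart from 9 late granule genes. The early priming genes are those of primary granule contents, Ms4a3, the transcription factors Cebpa, Irf8 and Sfpi1, and the cytokine receptors. Poly(A) RNA-Seq had been made from female mice on a C57BL/6 background at about 12 weeks, 3 of them OgaVav-Cre and 3 wildtype, with at least 20000 sorted cells for each library. OgaVav-Cre mice carry a floxed Oga gene and a Vav-driven Cre, which is active throughout the hematopoietic lineage, so that every blood cell type in these mice, and not LSK cells alone, comes from deleted cells. Wildtype littermates served as controls. Oga encodes the O-GlcNAcase that takes O-linked N-acetylglucosamine off nuclear and cytosolic proteins.

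Myeloid cells mature in waves of transcription. Multipotent progenitors already hold low levels of myeloid transcripts, a state called priming, and PU.1 (encoded by Sfpi1), C/EBPα and IRF8 set the balance between granulocyte and monocyte fates. The primary, or azurophil, granule genes such as Mpo and Elane are transcribed at the progenitor and promyelocyte stages. The secondary and tertiary granule genes, such as Ltf, Camp, Ngp and Mmp8, come on later, under C/EBPε, in maturing cells that no longer belong to the stem cell compartment.

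The libraries held 19318056 to 27064389 counts. Levels are given as CPM, counts per 1000000 reads scaled to library size by the TMM method, and 3 reads, taken as the floor, correspond to 0.109 to 0.156 CPM. Mgea5, the symbol under which the table lists Oga, had a log2 fold change of -5.01 in OgaVav-Cre cells (adjusted p = 5.88e-05 in the quasi-likelihood test of edgeR, SE 0.167), which checked the labels. Of 22032 loci tested, 7 (0.0318%) passed an adjusted p of 0.05 together with a log2 fold change above 1 or below -1, which are the cutoffs used throughout. All 12 genes listed for the sorted cells, Kit, Cd34, Flt3 and Hlf among them, were detected in every library, and their summed level was 1286 to 2617 CPM in OgaVav-Cre and 1669 to 2864 CPM in wildtype. OgaVav-Cre 3 had the lowest sum. Not every gene of the list was lowest there, since Slamf1 and Cd48 were highest in that library and Ly6a was lowest in wildtype 3. These are bulk samples, so that fewer cells of a type and less RNA per cell cannot be told apart.

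None of the 38 genes tested passed the cutoffs, in edgeR, DESeq2's Wald test or limma-voom, and the smallest adjusted p among them was that of Csf3r in each, at 0.412 in edgeR, 0.226 in DESeq2's Wald test and 0.427 in limma-voom. By the unadjusted p of 0.05, 1 gene was higher in OgaVav-Cre cells (Ly6c1), against 4.38% of all loci, and 3 were lower (Csf3r, Csf2ra and Cd33), against 6.27% of all loci. No gene had every OgaVav-Cre library above every wildtype library, against 7.5% of all loci, and 2 genes (Csf3r and Cd33) had every OgaVav-Cre library below every wildtype library, against 9.97%. The log2 fold change of OgaVav-Cre over wildtype was above 0 for 26 genes and below 0 for 12, with a median of 0.12 beside 0.0041 for all loci tested. That split was 22 to 16 in limma-voom and 16 to 22 with the deposited RPKM and a pseudocount of 0.1, and it turned to 6 to 32 without OgaVav-Cre 3. What set the genes apart from each other was their spread between mice. The highest library exceeded the lowest by 1.23 to 36.5-fold, and the genes with the widest spread were those of the late granules.

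**Figure D1:**
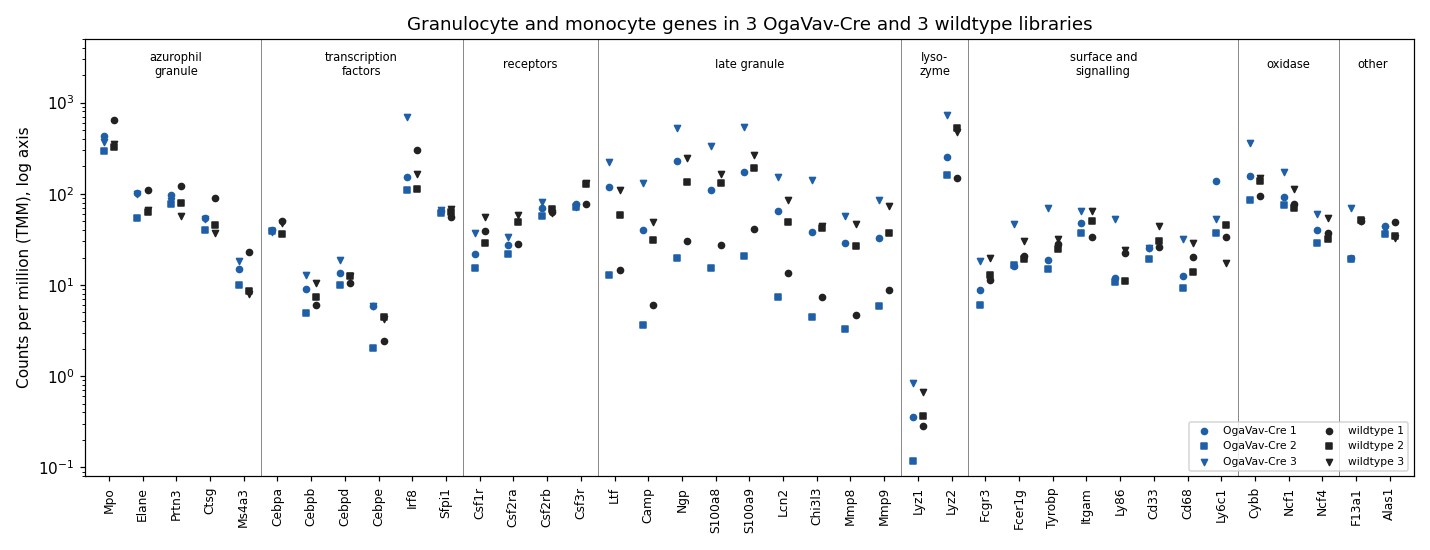
Level of each of the 39 genes in each library (CPM, log axis), with OgaVav-Cre libraries in blue on the left of each gene and wildtype libraries in black on the right, grouped by role. The 9 late granule genes spread over 14.3 to 36.5-fold between the lowest and the highest library, and the 5 azurophil granule genes over 2.02 to 2.87-fold.

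The 5 genes grouped as azurophil granule genes, apart from Ms4a3, encode proteins stored in the first granules that a developing neutrophil makes. Mpo, which encodes myeloperoxidase, the enzyme that makes hypochlorous acid, stood at 433, 298 and 367 CPM in the OgaVav-Cre libraries and at 647, 329 and 348 CPM in the wildtype libraries. Its mean was 366 ± 67.4 CPM in the OgaVav-Cre libraries, beside 442 ± 178 CPM in the wildtype libraries (SD, n = 3 each). Elane, which encodes neutrophil elastase, stood at 102, 54.5 and 99.97 CPM in OgaVav-Cre 1 to 3, and 109.9, 63.8 and 66.5 CPM in wildtype 1 to 3. Wildtype 1 was the highest library for both genes and OgaVav-Cre 2 the lowest, and the genotypes overlapped. Prtn3, the gene of proteinase 3, lies 3.14 kb from Elane on chromosome 10 and stood at 95.8, 78.0 and 83.2 CPM in OgaVav-Cre 1, 2 and 3 and 123, 79.2 and 57.6 CPM in wildtype 1, 2 and 3. Ctsg, which encodes cathepsin G, stood at 53.8, 40.05 and 53.1 CPM in the OgaVav-Cre libraries and at 89.4, 45.2 and 37.0 CPM in the wildtype libraries. Ms4a3, which encodes a membrane protein of the MS4A family found in granulocyte-monocyte progenitors, stood at 15.1, 10.1 and 18.3 CPM in OgaVav-Cre 1 to 3, and 22.9, 8.61 and 7.995 CPM in wildtype 1 to 3. All 5 genes were highest in wildtype 1, and each varied only 2.02 to 2.87-fold from the lowest to the highest library. Their log2 fold changes ran from -0.27 (standard error 0.28) for Mpo to 0.14 (standard error 0.43) for Ms4a3, with adjusted p values of at least 0.74 in edgeR. All 5 were above 0 without wildtype 1, with a median of 0.33 in place of -0.014, and all 5 were below 0 without wildtype 2 (median -0.078) and without wildtype 3 (median -0.24). The span of Elane lies within that of Med16 on the other strand, and reads of both cannot be told apart because the use of strand in counting is not given in the sources used here. The same holds for loci on the other strand that overlap Mpo, Irf8 and Ltf. Each had most reads in the same library as its gene, 2959 in wildtype 1 for Mpo, and 3483 and 1450 in OgaVav-Cre 3 for Irf8 and Ltf.

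Of the transcription factors, Cebpa, which encodes the C/EBP family member needed to enter the granulocyte lineage, stood at 40.3, 39.3 and 38.5 CPM in OgaVav-Cre 1, 2 and 3 and 50.7, 36.1 and 48.4 CPM in wildtype 1, 2 and 3. The 3 OgaVav-Cre libraries lay within 2 CPM of each other and inside the wildtype range. Sfpi1, which encodes PU.1, was the steadiest of the 39 genes, at 65.0, 61.0 and 65.7 CPM in the OgaVav-Cre libraries and at 55.6, 62.4 and 68.6 CPM in the wildtype libraries. Its highest library exceeded its lowest by 1.23-fold, and its log2 fold change was 0.039 (95% interval -0.24 to 0.31). Irf8, which encodes the factor that steers progenitors to monocytes and dendritic cells and is also expressed in B cells, stood at 155, 111 and 699.5 CPM in OgaVav-Cre 1 to 3, and 303, 114 and 163 CPM in wildtype 1 to 3. OgaVav-Cre 3 was more than 2-fold above every other library, and wildtype 1 came next. Its log2 fold change of 0.74 (standard error 0.69) turned to -0.54 without OgaVav-Cre 3. The summed level of 10 B cell genes was also high in these libraries, at 1410 CPM in OgaVav-Cre 3 and 1006 CPM in wildtype 1. It was high in wildtype 3 as well (982 CPM), where Irf8 stood near its level in OgaVav-Cre 1, and 288 to 404 CPM in the other 3. The part of B cells in the Irf8 level was not tested. Cebpb, Cebpd and Cebpe, whose products act later in granulocyte maturation and in the response to cytokines, were lower, between 2.06 and 18.9 CPM in all libraries. All 3 were lowest in OgaVav-Cre 2, with wildtype 1 next lowest, and their log2 fold changes were 0.16, 0.25 and 0.31 with adjusted p values of at least 0.73 in edgeR.

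Of the 38 genes tested, the receptor genes Csf3r and Csf2ra had the lowest unadjusted p values. Csf3r, which encodes the receptor for G-CSF, the main growth factor of neutrophils, stood at 77.1, 71.3 and 71.8 CPM in OgaVav-Cre 1, 2 and 3 and 77.7, 127 and 131 CPM in wildtype 1, 2 and 3. All OgaVav-Cre libraries lay below all wildtype libraries, but OgaVav-Cre 1 and wildtype 1 were less than 1 CPM apart, and they overlapped once DESeq2's size factors replaced TMM or once the filter on low counts was dropped. Csf3r was lower in OgaVav-Cre cells by 0.61 on the log2 scale (95% interval -1.07 to -0.15), with an unadjusted p of 0.0163 and an adjusted p of 0.412 in edgeR. That adjusted p ran from 0.186 to 0.862 over all alternatives tried. Csf2ra, which encodes the GM-CSF receptor α chain, stood at 27.4, 22.0 and 33.6 CPM in the OgaVav-Cre libraries and at 28.4, 48.8 and 59.3 CPM in the wildtype libraries. OgaVav-Cre 3 lay above wildtype 1, while wildtype 2 and wildtype 3 exceeded all other libraries. The log2 fold change was -0.72 (95% interval -1.36 to -0.069, adjusted p = 0.446 in edgeR, unadjusted p = 0.0343). Most of the Csf2ra span is shared with a predicted locus, LOC100045292, on the same strand. Csf1r, which encodes the M-CSF receptor of monocytes and macrophages, stood at 22.0, 15.5 and 37.5 CPM in OgaVav-Cre 1 to 3, and 39.3, 28.6 and 56.0 CPM in wildtype 1 to 3. The groups overlapped, wildtype 3 was the highest library, and the log2 fold change was -0.72 (95% interval -1.55 to 0.10, adjusted p = 0.507 in edgeR). The summed level of 12 macrophage genes, among them C1qa, Vcam1 and Cd163, was also highest in wildtype 3, at 650.4 CPM, then 404 CPM in OgaVav-Cre 3 and 121.5 to 217.5 CPM in the other libraries, and its part in the Csf1r level was not tested. Csf2rb, which encodes the β chain shared by the GM-CSF, IL-3 and IL-5 receptors, stood at 70.5, 57.2 and 81.2 CPM in OgaVav-Cre 1, 2 and 3 and 63.1, 68.4 and 62.0 CPM in wildtype 1, 2 and 3. The genotypes overlapped, and the log2 fold change of Csf2rb was 0.11 (95% interval -0.23 to 0.45). The table lists its near-identical neighbour Csf2rb2 apart, and reads shared by them could have been split.

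Over the 12 early priming genes as a whole, 5 log2 fold changes were above 0 and 7 below, the median was -0.10 and the median standard error 0.28. The highest library exceeded the lowest by a median of 2.15-fold, with Irf8 as the widest at 6.28-fold. For comparison, 11876 loci with a mean of at least 10 CPM had a median ratio of 1.5 and a 95th percentile of 3.12. All 12 early priming and all 9 late granule genes had a mean above that level.

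The 9 late granule genes formed 1 pattern across the mice. Ltf, which encodes lactoferrin, the iron-binding protein of secondary granules, stood at 119, 12.9 and 225 CPM in the OgaVav-Cre libraries and at 14.4, 58.9 and 111 CPM in the wildtype libraries. Camp, which encodes the cathelicidin antimicrobial peptide, stood at 40.1, 3.60 and 132 CPM in OgaVav-Cre 1 to 3, and 6.09, 31.2 and 48.8 CPM in wildtype 1 to 3. Ngp, which encodes neutrophilic granule protein, stood at 230.2, 19.9 and 529 CPM in OgaVav-Cre 1, 2 and 3 and 30.3, 134 and 245 CPM in wildtype 1, 2 and 3. In all 3 genes OgaVav-Cre 3 was the highest library, OgaVav-Cre 2 the lowest and wildtype 1 the second lowest. These 3 genes lie on chromosome 9, with 570.0 kb between Camp and Ngp and 596 kb between Ngp and Ltf.

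S100a8 and S100a9 encode the calprotectin subunits that fill the cytosol of neutrophils and monocytes, and they lie 22.6 kb apart on chromosome 3. Although their products are not granule contents, both genes were kept in the late granule list and in its sums and shares. S100a8 stood at 109.8, 15.2 and 338 CPM in the OgaVav-Cre libraries and at 27.4, 132 and 166 CPM in the wildtype libraries. S100a9 stood at 171, 20.9 and 536 CPM in OgaVav-Cre 1 to 3, and 41.4, 192 and 268 CPM in wildtype 1 to 3. Per length, these had the highest means of the 39 genes over all 6 libraries, at 344 RPKM (the deposited unit, scaled to locus length and library size) for S100a9 and 293 RPKM for S100a8, beside 87.7 RPKM for Mpo and 78.2 RPKM for Elane. In OgaVav-Cre 2 (34.7 RPKM for S100a9 and 33.7 RPKM for S100a8) and wildtype 1 (71.0 and 62.5 RPKM) both lay below Mpo and Elane.

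Lcn2, which encodes the siderophore-binding lipocalin of secondary granules, stood at 64.2, 7.40 and 153 CPM in OgaVav-Cre 1, 2 and 3 and 13.5, 48.7 and 85.8 CPM in wildtype 1, 2 and 3. Chi3l3, which encodes the chitinase-like protein Ym1, stood at 38.1, 4.51 and 140.0 CPM in the OgaVav-Cre libraries and at 7.36, 42.1 and 44.8 CPM in the wildtype libraries. Mmp8, which encodes neutrophil collagenase, stood at 29.2, 3.28 and 57.6 CPM in OgaVav-Cre 1 to 3, and 4.73, 26.6 and 46.8 CPM in wildtype 1 to 3. Mmp9, which encodes the gelatinase of tertiary granules, stood at 32.5, 5.94 and 84.8 CPM in OgaVav-Cre 1, 2 and 3 and 8.76, 37.4 and 74.3 CPM in wildtype 1, 2 and 3. The order at both ends was the same in all 9 genes, with OgaVav-Cre 3 on top, OgaVav-Cre 2 at the bottom and wildtype 1 just above it. Of all loci tested, 4.3% had OgaVav-Cre 3 highest and OgaVav-Cre 2 lowest, and 5.32% had OgaVav-Cre 2 and wildtype 1 as the lowest pair, an order that was noticed in these data and not tested. The highest library exceeded the lowest by 14.3-fold for Mmp9 to 36.5-fold for Camp, with a median of 22.2, and 1.63% of the 11876 loci with a mean of at least 10 CPM exceeded 10-fold. Without OgaVav-Cre 3 the median ratio was 12.3 and without OgaVav-Cre 2 it was 13.2.

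**Figure D2:**
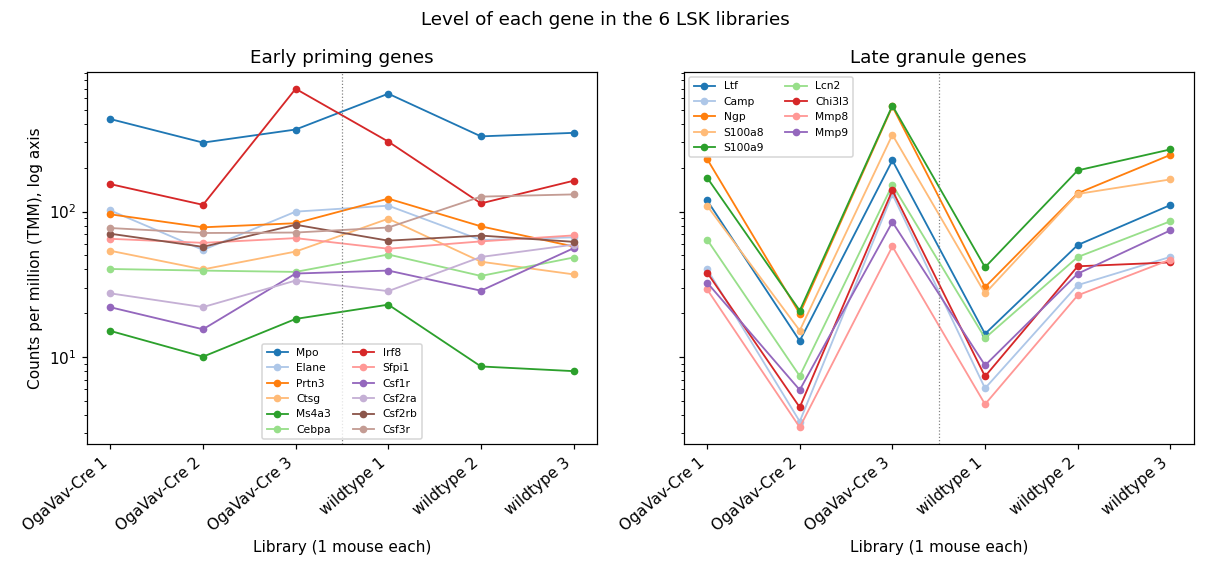
Level of the 12 early priming genes (left) and the 9 late granule genes (right) in the 6 libraries (CPM, log axis shared by both panels), with 1 line joining the points of 1 gene and a dotted line between genotypes. The late granule lines run in parallel and drop together in OgaVav-Cre 2 and wildtype 1, whereas no early priming gene except Irf8 spreads by more than 3.61-fold.

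The genotypes overlapped for all 9 late granule genes, and none differed beyond the spread between mice. Their log2 fold changes were all above 0 in edgeR, from 0.033 for Mmp9 to 1.03 for Camp with a median of 0.60, but 5 of 9 were above 0 in limma-voom and with the deposited RPKM at either pseudocount. The standard errors had a median of 0.98 on the log2 scale, so that the 95% interval of Camp reached from -1.51 to 3.56. The smallest adjusted p was 0.729 (Ltf, edgeR). Without OgaVav-Cre 3, 8 of the 9 genes were below 0 and the median was -0.56. Without wildtype 3 the median was 1.27, without OgaVav-Cre 2 it was 1.14, and without wildtype 1 it was 0.16. The mean level of the summed genes was 1041 ± 1065 CPM in the OgaVav-Cre libraries, beside 649 ± 471 CPM in the wildtype libraries (SD, n = 3 each).

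The shares of late and primary granule genes differed most in their order in wildtype 1. The late granule genes took 0.0747% of all counts in OgaVav-Cre 1, 0.00906% in OgaVav-Cre 2 and 0.222% in OgaVav-Cre 3, and 0.0159%, 0.0702% and 0.119% in wildtype 1, 2 and 3. The azurophil genes took 0.0626%, 0.0466% and 0.063% in the OgaVav-Cre libraries and 0.103%, 0.0525% and 0.0564% in the wildtype libraries. Wildtype 1 had the highest share of azurophil counts and the second lowest share of late granule counts. Among the other 5 libraries both shares were highest in OgaVav-Cre 3 and lowest in OgaVav-Cre 2. The azurophil shares of OgaVav-Cre 3 and OgaVav-Cre 1 were nearly equal, and by summed CPM OgaVav-Cre 1 was higher (699.7 against 621.6 CPM). The order also differed without wildtype 1, since OgaVav-Cre 1 lay above wildtype 3 in the azurophil share and below it in the late share. Reads of the late granule genes per azurophil read numbered 1.19, 0.195 and 3.53 in OgaVav-Cre 1, 2 and 3 and 0.155, 1.34 and 2.11 in wildtype 1, 2 and 3, so that each genotype held 1 library far below its others. Wilson 95% intervals of these shares, which cover counting error only, were narrow at this depth, for example 0.00871% to 0.00944% in OgaVav-Cre 2, the library with the fewest late granule reads (2364).

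**Figure D3:**
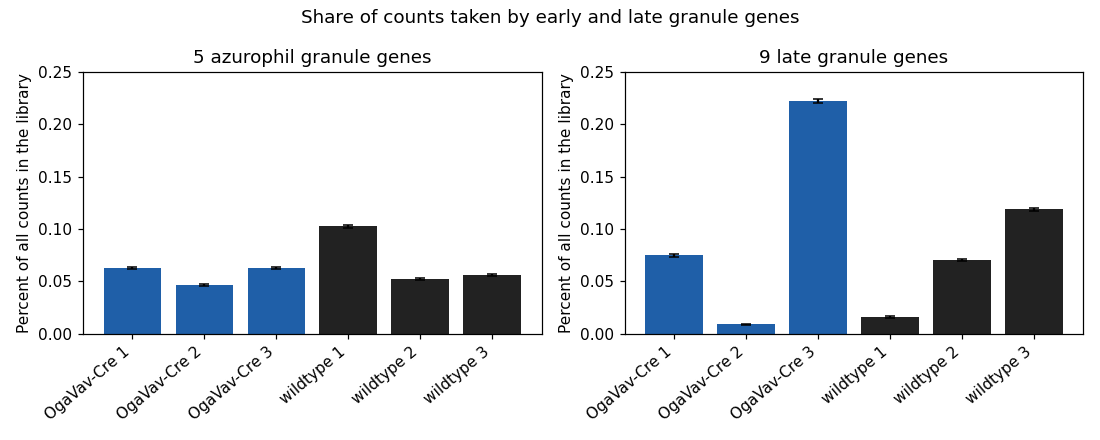
Percent of all counts taken by the 5 azurophil granule genes (left) and the 9 late granule genes (right) in each library, with Wilson 95% intervals as error bars, OgaVav-Cre in blue and wildtype in black. The late share ran from 0.00906% to 0.222% and the azurophil share from 0.0466% to 0.103%. OgaVav-Cre 2 was lowest in both, and the highest library was OgaVav-Cre 3 for the late share and wildtype 1 for the azurophil share.

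Promoter sequences are shown for the genes on which this contrast turned, namely the 4 late granule genes with the widest spread and the 2 azurophil genes with the highest RPKM. Each is the RefSeq window (assembly GRCm38.p6) from 250 bases before to 50 bases after an annotated start, found once, letter for letter, in mm9, whose coordinates are given. They are written 5′ to 3′ on the gene's strand. Capitals mark the letters TTGCNNAA, a C/EBP site, and GAGGAA, a PU.1 site, on either strand.
Camp, mm9 chr9:109751921-109752220 (minus strand): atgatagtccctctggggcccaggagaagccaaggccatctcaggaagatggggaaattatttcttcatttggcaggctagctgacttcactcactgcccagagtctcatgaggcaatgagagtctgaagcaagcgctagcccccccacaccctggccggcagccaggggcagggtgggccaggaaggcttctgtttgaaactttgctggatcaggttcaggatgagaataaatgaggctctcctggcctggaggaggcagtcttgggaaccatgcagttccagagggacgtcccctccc
Chi3l3, mm9 chr3:105970433-105970732 (minus strand): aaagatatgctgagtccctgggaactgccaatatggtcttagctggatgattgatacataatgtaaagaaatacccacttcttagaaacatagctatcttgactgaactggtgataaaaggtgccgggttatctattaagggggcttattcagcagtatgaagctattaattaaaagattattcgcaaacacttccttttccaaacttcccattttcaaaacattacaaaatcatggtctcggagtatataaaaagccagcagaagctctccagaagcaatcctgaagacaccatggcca
Ngp, mm9 chr9:110322062-110322361 (plus strand): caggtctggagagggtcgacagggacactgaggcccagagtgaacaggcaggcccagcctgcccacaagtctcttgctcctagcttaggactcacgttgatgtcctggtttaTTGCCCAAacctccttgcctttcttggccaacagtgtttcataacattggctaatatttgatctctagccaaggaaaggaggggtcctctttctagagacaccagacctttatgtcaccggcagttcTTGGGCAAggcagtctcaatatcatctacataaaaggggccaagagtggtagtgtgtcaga
S100a9, mm9 chr3:90499594-90499893 (minus strand): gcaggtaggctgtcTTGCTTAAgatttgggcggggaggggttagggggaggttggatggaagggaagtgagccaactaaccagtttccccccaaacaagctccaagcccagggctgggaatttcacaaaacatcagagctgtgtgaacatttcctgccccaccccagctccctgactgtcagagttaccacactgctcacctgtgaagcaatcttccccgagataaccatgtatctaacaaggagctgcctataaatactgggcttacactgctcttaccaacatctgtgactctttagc
Mpo, mm9 chr11:87607036-87607335 (plus strand): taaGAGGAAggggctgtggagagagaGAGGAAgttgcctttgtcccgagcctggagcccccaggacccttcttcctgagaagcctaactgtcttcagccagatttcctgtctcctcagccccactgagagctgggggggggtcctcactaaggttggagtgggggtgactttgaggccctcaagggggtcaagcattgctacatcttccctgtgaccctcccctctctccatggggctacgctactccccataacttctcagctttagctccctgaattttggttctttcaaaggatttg
Elane, mm9 chr10:79348807-79349106 (plus strand): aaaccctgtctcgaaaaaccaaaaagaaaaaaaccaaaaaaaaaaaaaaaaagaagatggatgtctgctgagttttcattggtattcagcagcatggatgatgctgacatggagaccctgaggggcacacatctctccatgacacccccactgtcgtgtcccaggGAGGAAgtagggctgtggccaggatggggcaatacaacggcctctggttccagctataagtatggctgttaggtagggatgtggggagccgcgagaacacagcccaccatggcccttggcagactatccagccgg

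The C/EBP letters began 138 bases before the start of Ngp, with a further match closer to it, and 236 bases before that of S100a9, whereas neither Camp nor Chi3l3 held either set of letters. Mpo held the PU.1 letters 2 times, the first 247 bases before the start, and Elane once, 85 bases before. A window was found for 31 of the 39 genes, 26 of them within 1000 bases of the listed locus start. The C/EBP letters stood in 5 of 8 late granule windows (Ltf, Ngp, S100a9, Lcn2 and Mmp8) and in 1 of 9 early priming windows (Ms4a3), beside 10.8% of 32851 promoters. The PU.1 letters stood in 4 of 8 late and 7 of 9 early windows, beside 28.3% of all promoters. The RUNX letters, TGTGGT, stood in 2 of 8 late and 1 of 9 early windows, beside 16.8%. In none of the printed windows did the marked sites overlap each other. A match of letters is a description of these windows and no evidence of binding.

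Of the 2 lysozyme genes, Lyz2 stands for myeloid cells in general. Lyz2, the lysozyme gene of macrophages and neutrophils, stood at 253, 159 and 735 CPM in the OgaVav-Cre libraries and at 148, 528 and 474 CPM in the wildtype libraries. OgaVav-Cre 3 was the highest library, wildtype 1 and OgaVav-Cre 2 were the lowest pair, and the log2 fold change was -0.0052 (95% interval -1.46 to 1.45). Lyz1, the Paneth cell lysozyme gene 5.47 kb away on chromosome 10, was covered by 8, 3 and 23 reads in the OgaVav-Cre libraries and by 6, 7 and 16 reads in the wildtype libraries, and it was left out of the test. The 2 genes are near-identical copies, so that reads of 1 could have been given to the other.

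Among the surface and signalling genes, Cd33, which encodes a sialic acid-binding inhibitory receptor of myeloid progenitors, stood at 25.3, 19.5 and 25.2 CPM in OgaVav-Cre 1 to 3, and 26.4, 30.7 and 43.9 CPM in wildtype 1 to 3. The genotypes did not overlap, although OgaVav-Cre 1 and wildtype 1 were about 1 CPM apart. Cd33 was lower in OgaVav-Cre cells by 0.53 on the log2 scale (95% interval -1.03 to -0.024, unadjusted p = 0.0422, adjusted p = 0.459 in edgeR). Ly6c1, whose product is a GPI-anchored antigen of monocytes, plasma cells and endothelium, stood at 138, 37.0 and 53.1 CPM in OgaVav-Cre 1, 2 and 3 and 33.4, 45.1 and 17.6 CPM in wildtype 1, 2 and 3. OgaVav-Cre 1 was at least 2-fold above all other libraries, and the rest overlapped. The log2 fold change of Ly6c1 was 1.25 (95% interval 0.041 to 2.45, unadjusted p = 0.0442, adjusted p = 0.46 in edgeR) and 0.50 without OgaVav-Cre 1. The summed level of 9 plasma cell genes present in the table, immunoglobulin μ and J chain included, was highest in the same library, at 88590 CPM beside 9317 to 41240 CPM in the other 5. That sum was lowest in OgaVav-Cre 3, the library second highest for Ly6c1, and its part in the Ly6c1 level was not tested. The near-identical Ly6c2 stood at 258, 74.9 and 99.0 CPM in the OgaVav-Cre libraries and at 60.8, 100.1 and 35.4 CPM in the wildtype libraries, also highest in OgaVav-Cre 1. Reads could have been split between Ly6c1 and Ly6c2.

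The other surface genes overlapped between genotypes, and their highest library exceeded the lowest by 1.91-fold for Itgam to 4.85-fold for Ly86. Fcer1g and Tyrobp, which encode ITAM adaptors of activating receptors, ran from 16.2 to 46.8 CPM and from 15.1 to 70.1 CPM. Fcgr3, an Fcγ receptor gene, ran from 6.09 to 19.6 CPM, Itgam, the gene of CD11b, from 33.8 to 64.6 CPM, Ly86, the gene of MD-1, from 10.8 to 52.4 CPM, and Cd68, a macrophage lysosomal gene, from 9.30 to 31.8 CPM. OgaVav-Cre 3 was the highest library in 5 of these 6 genes, the exception being Fcgr3. Log2 fold changes of the 6 genes ran from -0.39 to 0.38, with adjusted p values of at least 0.748 in edgeR.

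Of the 3 genes of the phagocyte NADPH oxidase, the complex that makes superoxide, Ncf1 (the p47phox subunit) had the highest level per length and stood at 93.1, 74.9 and 174 CPM in OgaVav-Cre 1 to 3, and 78.1, 69.3 and 112 CPM in wildtype 1 to 3. Cybb, which encodes the catalytic gp91phox subunit, ran from 85.3 to 360.0 CPM, and Ncf4, which encodes p40phox, from 28.9 to 60.3 CPM. All 3 were highest in OgaVav-Cre 3, the genotypes overlapped, and the log2 fold changes of Ncf1, Cybb and Ncf4 were 0.40, 0.67 and 0.07 with adjusted p values of at least 0.615 in edgeR. Part of the Ncf1 span is shared with Gtf2ird2 on the other strand.

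Alas1, which encodes the housekeeping enzyme of the first step in heme synthesis, stood at 44.6, 36.6 and 40.8 CPM in OgaVav-Cre 1, 2 and 3 and 49.3, 34.5 and 32.6 CPM in wildtype 1, 2 and 3. Its genotypes overlapped, with a log2 fold change of 0.067 (95% interval -0.36 to 0.49). F13a1, which encodes the coagulation factor XIII A subunit carried by monocytes and platelets, is named after its values were seen. It stood at 19.7, 19.2 and 70.4 CPM in the OgaVav-Cre libraries and at 50.4, 51.9 and 50.7 CPM in the wildtype libraries. The 3 wildtype libraries lay within 2 CPM of each other, and OgaVav-Cre 3 was above them while OgaVav-Cre 1 and OgaVav-Cre 2 were below. With all 6 libraries its log2 fold change was -0.48 (SE 0.48) with an adjusted p of 0.723 in edgeR, and without OgaVav-Cre 3 it was -1.39 with an adjusted p of 0.0373 in edgeR, the only call among the 39 genes under any alternative. In that comparison 9 of 22584 loci (0.0399%) passed.

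**Figure D4:**
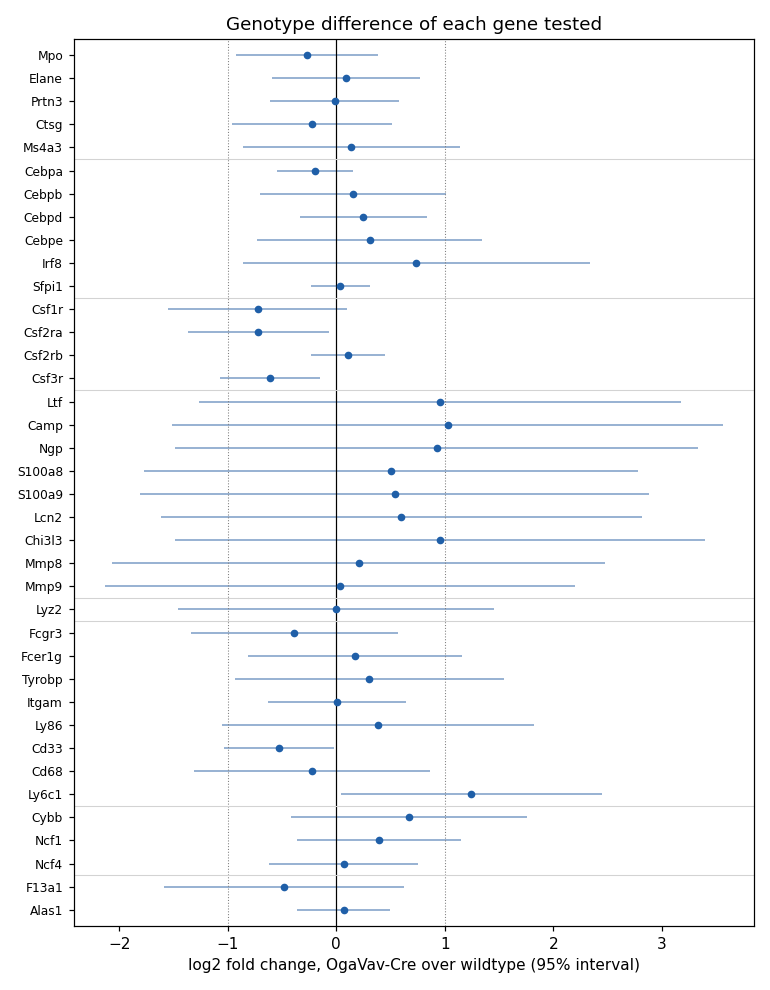
Log2 fold change of OgaVav-Cre over wildtype for the 38 genes tested, with 95% intervals from edgeR, in order of role from the azurophil genes at the top to F13a1 and Alas1 at the bottom, and dotted lines at the cutoffs of -1 and 1. Intervals of the late granule genes are the widest, and the intervals of Csf2ra, Csf3r, Cd33 and Ly6c1 leave out 0 before adjustment.

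The counts of lower genes moved most with OgaVav-Cre 3. Without it, 8 of 38 genes were lower in OgaVav-Cre cells at an unadjusted p of 0.05 in place of 3, against 8.09% of all loci in place of 6.27%, and 9 genes (Csf1r, Csf2ra, Csf3r, Fcgr3, Fcer1g, Tyrobp, Cd33, Cd68 and F13a1) had both remaining OgaVav-Cre libraries below every wildtype library, against 17.9% of all loci. Without wildtype 3, 0 genes were lower at that p, against 3.2% of all loci. The number was 1 without OgaVav-Cre 1, against 4.08% of all loci, and 1 without OgaVav-Cre 2, against 4.47%.

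Other genes of the same programs were read from a list of 60, all of them in the table and 58 of them tested. None of the 58 passed the cutoffs, and by the unadjusted p of 0.05 the list held 2 higher genes, against 4.38% of all loci, and 1 lower gene, against 6.27%. Serpinb1a, which encodes an inhibitor of neutrophil serine proteases, stood at 109, 138 and 102 CPM in OgaVav-Cre 1 to 3, and 85.9, 90.3 and 82.4 CPM in wildtype 1 to 3, every OgaVav-Cre library above every wildtype library. The difference was 0.44 on the log2 scale (SE 0.14), with an adjusted p of 0.412 in edgeR. Ccl9, which encodes a myeloid chemokine, stood at 30.6, 28.7 and 44.8 CPM in OgaVav-Cre 1, 2 and 3 and 50.05, 71.7 and 52.0 CPM in wildtype 1, 2 and 3, every OgaVav-Cre library below every wildtype library. The difference was -0.74 on the log2 scale (SE 0.22), again with an adjusted p of 0.412 in edgeR. Cyba, which encodes the p22phox subunit that partners gp91phox, was the other higher gene, with overlapping genotypes and a log2 fold change of 0.50 (adjusted p = 0.457 in edgeR).

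The most abundant genes of that list were taken per length (RPKM). On the neutrophil side they were Calr, a chaperone gene, Srgn, the gene of the granule proteoglycan serglycin, and Plac8, with log2 fold changes of 0.21, -0.036 and -0.036. On the monocyte side they were Psap, a lysosomal gene, Ly6e and Ly6c2, with 0.34, 0.25 and 1.14, none with an adjusted p below 0.49 in edgeR. The neutrophil side repeated the order of the late granule genes in part, with OgaVav-Cre 3 highest and OgaVav-Cre 2 lowest in 16 of 30 genes tested (53.3%), beside 7 of 28 (25%) on the monocyte side and 4.3% of all loci. Ly6g, the antigen that marks mature mouse neutrophils, stood at 0.843, 0.198 and 3.90 CPM in the OgaVav-Cre libraries and at 0, 1.92 and 1.14 CPM in the wildtype libraries, close to the floor in OgaVav-Cre 2 and with no read in wildtype 1, where 3 reads would be 0.141 CPM. Cd177, another surface antigen of neutrophils, stood at 21.2, 1.35 and 42.1 CPM in OgaVav-Cre 1 to 3, and 2.81, 17.2 and 28.0 CPM in wildtype 1 to 3. Retnlg stood at 18.2, 3.32 and 68.1 CPM in OgaVav-Cre 1, 2 and 3 and 4.83, 31.6 and 49.0 CPM in wildtype 1, 2 and 3, and Cxcr2, the chemokine receptor of mature neutrophils, at 8.96, 1.98 and 33.1 CPM in the OgaVav-Cre libraries and at 6.33, 15.6 and 29.9 CPM in the wildtype libraries. These 4 were named after their values were seen, and all of them were low in OgaVav-Cre 2 and wildtype 1 and highest in OgaVav-Cre 3.

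Markers of other cell types that the gate could hold also varied between libraries, in orders that differed from list to list. Erythroid genes (11 of 11 in the table) summed to 662 to 2600 CPM in OgaVav-Cre and 788 to 1027 CPM in wildtype, with the highest sum in OgaVav-Cre 3 and the lowest in OgaVav-Cre 2, and none was at 0 reads. Most of the sum in OgaVav-Cre 3 came from the globin genes Hba-a1 (1631 CPM) and Hbb-b1 (630 CPM). Only 4 of the 11 genes were highest in that library, and Car2 was lowest there, at 179 CPM. B cell genes (10 of 10) summed to 294.5 to 1410 CPM and 288 to 1006 CPM, highest in OgaVav-Cre 3, next in wildtype 1 and lowest in wildtype 2. Of these 10 genes, 6 were highest in OgaVav-Cre 3, while Vpreb1, Vpreb3, Igll1 and Blnk were highest in wildtype 1. Macrophage genes (12 of 12) summed to 121.5 to 404 CPM and 131.5 to 650.4 CPM, highest in wildtype 3 and lowest in OgaVav-Cre 1, and no gene of either list was at 0. T and NK cell genes (9 of 10 in the table) summed to 104 to 215 CPM and 87.0 to 154 CPM, highest in OgaVav-Cre 3 and lowest in wildtype 2, none at 0. Mast cell, basophil and eosinophil genes (14 of 14) summed to 56.0 to 167 CPM and 102.5 to 220.1 CPM, highest in wildtype 1 and lowest in OgaVav-Cre 2, with Mcpt1 at 0 reads in every library and Tpsb2 and Cma1 both at 0 in OgaVav-Cre 1, OgaVav-Cre 2 and wildtype 2. Plasma cell genes (9 of 11 in the table) had their lowest sum in OgaVav-Cre 3, at 9317 CPM, close to the 9621 CPM of wildtype 3. Most of the sum in OgaVav-Cre 3 came from Ighm, at 7577 CPM. Sdc1, Xbp1, Irf4, Tnfrsf17, Derl3 and Txndc5 were lowest in wildtype 3 instead. The part of these cell types in the levels of the granule genes was not tested. The sort removed lineage-positive cells with a cocktail whose antibodies the labels do not list.

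**Figure D5:**
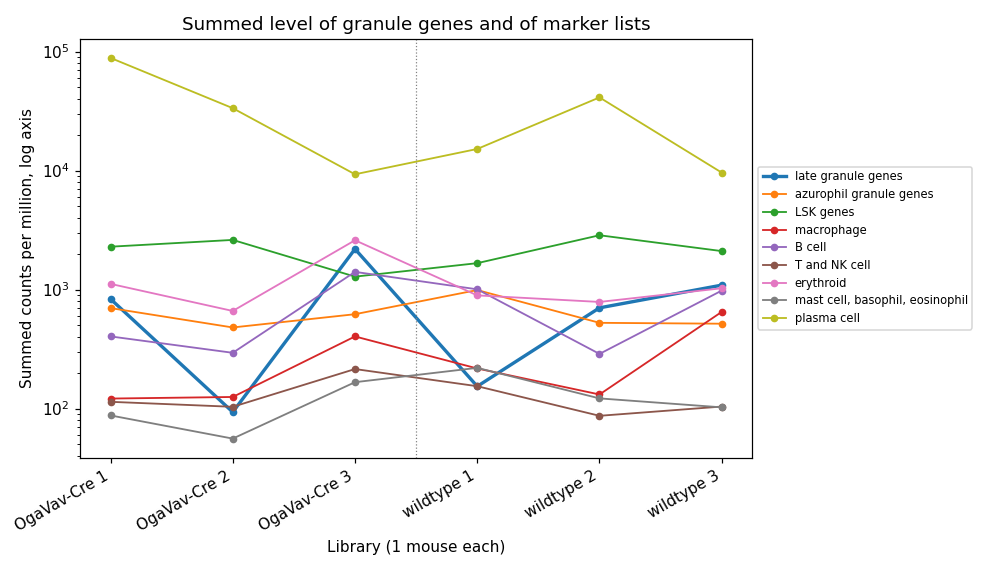
Summed level (CPM, log axis) of the late granule genes, the azurophil granule genes and 7 lists of marker genes in each library, 1 line to a list, with a dotted line between genotypes. The late granule sum moves from 93.5 to 2194 CPM, a wider fold range than that of any other list drawn, and its peak in OgaVav-Cre 3 coincides with the peak of the erythroid, B cell and T and NK cell sums and with the lowest sum of LSK genes. Most of the erythroid sum in that library came from Hba-a1 and Hbb-b1. Genes highest there were 4 of 11 erythroid, 6 of 10 B cell and 6 of 9 T and NK cell genes. Of the 12 LSK genes, 2 (Slamf1 and Cd48) were also highest there.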

How the data were processed

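LSK cells from 3 OgaVav-Cre and 3 wildtype mice were compared, 1 library to a mouse, with groups and replicate numbers from the labels. Poly(A) RNA was sequenced by the authors in single reads, 50 bp long, that were mapped on mm9 and tallied for each locus in Genomatix (CASAVA 1.8.2 in the submitters' processing notes). The version of the aligner and the use of strand are not given in the sources used here. The deposited table holds raw read counts per locus, which were used for all tests, and RPKM values that the authors computed from counts, locus length and library size. Columns of the authors' own comparison were not used. Counts were scaled by TMM, filtered with filterByExpr by genotype and tested with edgeR 4.0.16 in R 4.3.3 (glmQLFit, glmQLFTest, BCV 0.308, Benjamini-Hochberg adjustment over 22032 loci), the test used here in place of the DESeq2 Wald test of the study. The scripts were tested on simulated data first. Alternatives were DESeq2 1.42.0 and its size factors, limma 3.58.1 (voom, and trend on RPKM with pseudocounts of 0.1 and 1), other filters, the replicate number as a block, summed loci and each library left out in turn. The spread between the highest and the lowest library was added as a measure after seeing the data. The genes, the lists and the rule for naming genes were chosen with earlier results of these data known. By that rule, early priming and late granule genes, genes at an unadjusted p of 0.05 or without overlap, the lysozymes and the gene of highest RPKM in each role are given in every library. The spans of 16 of the 39 genes overlap another listed locus. Shares carry Wilson 95% intervals from counting error only. Figures and tables used Python 3.11.15 and matplotlib 3.10.9. The labels give no batch.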

Additional observations from a re-analysis of the deposited data

How the results depend on the processing

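Every alternative kept the number of calls among these genes at 0, except the removal of OgaVav-Cre 3, which gave 1 (F13a1), so that the number ran from 0 to 1 over the libraries left out, and no related gene was called in any setting. Of the 38 genes, 28 had a log2 fold change that turned its sign in at least 1 alternative and 10 did not. None of the 28 was called with either sign, and the cause was not tested. With 1 library left out the number of genes higher at an unadjusted p of 0.05 ran from 0 to 2 (2.19% to 7.4% of all loci), and the number lower from 0 to 8 (3.2% to 8.09% of all loci). The number with every OgaVav-Cre library above every wildtype library ran from 0 to 6 (10.4% to 17.4% of all loci), and the number below from 1 to 9 (12.8% to 17.9% of all loci). The median ratio of the highest to the lowest library ran from 12.3 to 22.5 for the late granule genes and from 1.75 to 2.15 for the early priming genes, and the median log2 fold change from -0.56 to 1.27 and from -0.22 to 0.11. The number higher at that p was 0 with DESeq2's Wald test, limma-voom and RPKM at either pseudocount, where Ly6c1 missed it. The shares of all loci were 3.09%, 4.4%, and 2.82% and 2.8% for the pseudocounts of 0.1 and 1. The number of genes with every OgaVav-Cre library below every wildtype library was 1 with DESeq2's size factors and without the filter. The shares of all loci were 9.33% and 7.02%. No symbol of the set is repeated in the table, so that summing loci changed no gene. DESeq2's Wald test called 115 of 36466 loci (0.315%) and none of these genes, and edgeR without the filter called 21 of 36514.

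Same-numbered mice did not deviate together in every pair (r = -0.0885, 0.3091 and 0.3819), so that the numbers were not taken to pair the mice. With the replicate number as a block, 0 of these genes and 6 loci in all were called, and the median log2 fold change of the late granule genes was 0.29. With the replicate block the sign turned for Prtn3 0.049, Mmp9 -0.11 and Tyrobp -0.047.

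Other values whose sign turned, all uncalled, were the following log2 fold changes. In limma-voom they were Prtn3 0.051, S100a8 -0.0303, S100a9 -0.0504, Mmp8 -0.035, Mmp9 -0.19 and Tyrobp -0.023. With RPKM and a pseudocount of 0.1 they were Sfpi1 -0.025, S100a8 -0.10, S100a9 -0.12, Mmp8 -0.086, Mmp9 -0.25, Fcer1g -0.056, Tyrobp -0.11, Itgam -0.049, Ly86 -0.0048 and Ncf4 -0.027. With a pseudocount of 1 they were Sfpi1 -0.024, S100a8 -0.095, S100a9 -0.11, Mmp8 -0.024, Mmp9 -0.18, Fcer1g -0.049, Tyrobp -0.10, Itgam -0.045 and Ncf4 -0.024. Itgam stood at -0.00087 with at least 10 reads in every library, and Lyz2 at 0.011 with DESeq2's size factors and 0.013 in its Wald test. Over the 6 fits that left out 1 library, the log2 fold changes with a turned sign ranged as Mpo -0.43 to 0.11, Elane -0.044 to 0.39, Prtn3 -0.24 to 0.33, Ctsg -0.46 to 0.25, Ms4a3 -0.12 to 0.80, Cebpb -0.20 to 0.45, Cebpd -0.016 to 0.45, Irf8 -0.54 to 1.22, Sfpi1 -0.034 to 0.11, Csf2rb -0.013 to 0.24, Camp -0.39 to 1.65, Ngp -0.12 to 1.66, S100a8 -0.80 to 1.04, S100a9 -0.80 to 1.08, Lcn2 -0.46 to 1.27, Chi3l3 -0.56 to 1.504, Mmp8 -0.68 to 0.94, Mmp9 -1.06 to 0.83, Lyz2 -0.89 to 0.36, Fcer1g -0.52 to 0.44, Tyrobp -0.73 to 0.67, Itgam -0.23 to 0.24, Ly86 -0.76 to 0.75, Cd68 -0.94 to 0.092, Cybb -0.055 to 1.03, Ncf1 -0.041 to 0.63, Ncf4 -0.25 to 0.32 and Alas1 -0.045 to 0.28.

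The median standard error of the late granule genes, 0.98, exceeded their median log2 fold change of 0.60, and a difference of that size between the genotypes was within the error. Lyz1, with 3 to 23 reads, was limited by depth.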

Other observations

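Within the list of other neutrophil genes, Padi4, Gfi1 and Srgn were lowest in OgaVav-Cre 3, the library in which all 9 late granule genes were highest. Padi4, which encodes a histone-citrullinating enzyme, stood at 62.9, 75.4 and 33.5 CPM in OgaVav-Cre 1 to 3, and 34.7, 61.4 and 57.1 CPM in wildtype 1 to 3. Gfi1, which encodes a repressor used by stem cells and granulocyte progenitors alike, stood at 37.1, 36.4 and 24.3 CPM, and 27.2, 41.6 and 28.6 CPM. Padi4 and Gfi1 were next lowest in wildtype 1, but Srgn was next lowest in OgaVav-Cre 1. The low-end order of Padi4 and Gfi1 also held for the summed level of the genes of the sorted cells, at 1286 CPM in OgaVav-Cre 3 and 1669 CPM in wildtype 1. The log2 fold changes of Padi4 and Gfi1 were 0.17 and 0.0067, with adjusted p values of 0.87 and 0.993 in edgeR. Both genes were chosen after their values were seen.

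Ccr2, the gene of the chemokine receptor of inflammatory monocytes, had the second widest spread of the monocyte list, 14.7-fold from the lowest to the highest library, after Fcgr4 at 14.8-fold. It stood at 149, 23.2 and 109.8 CPM in OgaVav-Cre 1 to 3, and 342, 131 and 214 CPM in wildtype 1 to 3. Wildtype 1 was the highest library and OgaVav-Cre 2 the lowest, as for Mpo and Elane. OgaVav-Cre 1 lay above wildtype 2, so that the genotypes overlapped. The log2 fold change of Ccr2 was -1.28 with an adjusted p of 0.502 in edgeR. Mpeg1, the gene of perforin-2, was highest in OgaVav-Cre 3 at 1175 CPM and next in wildtype 1 at 437 CPM, the same libraries as Irf8. Ccr2 and Mpeg1 were also chosen after their values were seen, and no explanation for their levels was tested.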
